A study of Mus musculus with 401 samples.

Results

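Anti-Müllerian hormone (Amh), its receptor (Amhr2), the 3 subunits of inhibins and activins (Inha, Inhba and Inhbb) and follistatin (Fst) were followed in mouse oocytes and in the cumulus cells that surround them. The 6 genes were picked by name and read by their Ensembl identifiers, 6 of 41092 genes in the first set of libraries and 6 of 42349 in the second. All animals were B6D2F1 females (a cross of C57BL/6 and DBA/2 mice). RamDA-seq, a total RNA method for small inputs, was run on single germinal vesicle stage oocytes and, separately, on the pooled cumulus cells of the same follicle. The first set held Young (2 months), Middle (9 months) and Old (14 months) mice fed ad libitum and CR mice (9 months, on a calorie-restricted diet), all hyperovulated. The second set held hyperovulated mice of 2, 4, 9 and 14 months (2mo, 4mo, 9mo and 14mo) and mice of 2 months without hyperovulation (2moNoH). Hyperovulation was done with eCG, a hormone with follicle-stimulating activity, or with the preparation CARD HyperOva. The latter combines eCG with an antiserum against inhibin, the product of 3 of the genes described here. The labels did not say which preparation a mouse received.

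After removal of 1 complex of the mouse Middle3, whose oocyte library lacked oocyte transcripts, 399 of 401 libraries were analyzed. The first set gave 73 oocyte and 71 cumulus libraries of 11 mouse labels (Young 2, Middle 4, Old 2 and CR 3), of which the label Old1_2 joins more than 1 animal. The second set gave 127 oocyte and 128 cumulus libraries of 30 mice (2mo 5, 4mo 8, 9mo 4, 14mo 5 and 2moNoH 8). Total counts per library were 510029 to 2501005 in cumulus cells and 559305 to 4536690 in oocytes. Depth went with diet. Oocyte libraries had 2752043 to 4536690 counts in CR and 1903858 to 2624876 in Middle mice. Cumulus libraries had 1568223 to 2501005 counts in CR and 848243 to 1269680 in Middle mice. The part of depth in the comparison of Middle with CR was not tested. Levels are CPM, counts scaled to a common library size after TMM normalization, and levels of different genes are compared only as RPKM, reads scaled by length of transcript and depth. Each follicle is 1 library, and values of a mouse come from the summed counts of its libraries. The mouse label is the replicate in the main tests, and fits with libraries as units are named as such. In the main fits that compare cell types, the oocyte and cumulus sums of a mouse entered as separate samples. Fewer cells that express a gene and less RNA per cell cannot be told apart in a pool of cumulus cells.

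AMH is a hormone of the TGF-β family that granulosa cells of growing follicles secrete and that restrains follicle recruitment through the type 2 receptor AMHR2. Inhibins are dimers of the α subunit (Inha) with a β subunit, βA (Inhba) or βB (Inhbb). Activins are dimers of β subunits alone. Inhibins lower and activins raise the secretion of follicle-stimulating hormone by the pituitary, and follistatin binds and neutralizes activins. Cumulus cells are the granulosa cells nearest to the oocyte and respond to factors that the oocyte secretes, such as GDF9 and BMP15.

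On the mouse build GRCm38, Inha (ENSMUSG00000032968) lies on chromosome 1 from 75507077 to 75510366 on the forward strand, and Inhbb (ENSMUSG00000037035) lies on chromosome 1 from 119415465 to 119422248 on the reverse strand. Inhba (ENSMUSG00000041324) lies on chromosome 13 from 16011851 to 16031621, forward, and Fst (ENSMUSG00000021765) on chromosome 13 from 114452290 to 114458951, reverse. Amh (ENSMUSG00000035262) lies on chromosome 10 from 80805243 to 80807648, and Amhr2 (ENSMUSG00000023047) on chromosome 15 from 102445367 to 102454633, both forward. Fst shares 115 exon bases with the antisense gene Gm47040, which had 150 counts over all libraries of the first set. Inhba overlaps 2 genes on the other strand with no shared exon base.

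The 250 bases before the start of 3 of the genes are shown because Inhba and Inhbb were the pair that differed with hyperovulation and Amhr2 followed Amh across follicles. They are RefSeq promoter sequences of GRCm38.p6, written 5′ to 3′ along the gene. Of the 6 genes, 4 had an entry and 3 of these ended at the start annotated for the gene. Capitals mark the letters that matched a searched motif.

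Inhba, chr13:16011601-16011850, forward strand: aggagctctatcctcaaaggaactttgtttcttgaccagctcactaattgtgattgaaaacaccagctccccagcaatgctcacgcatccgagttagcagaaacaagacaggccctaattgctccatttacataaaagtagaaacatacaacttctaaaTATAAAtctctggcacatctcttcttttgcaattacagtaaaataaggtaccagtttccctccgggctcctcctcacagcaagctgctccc

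Inhbb, chr1:119422249-119422498, reverse strand: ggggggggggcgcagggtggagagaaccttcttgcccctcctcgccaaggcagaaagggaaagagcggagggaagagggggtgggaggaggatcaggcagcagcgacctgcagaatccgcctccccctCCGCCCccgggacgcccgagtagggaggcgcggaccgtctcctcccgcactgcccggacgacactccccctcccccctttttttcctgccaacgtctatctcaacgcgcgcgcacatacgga

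Amhr2, chr15:102445117-102445366, forward strand: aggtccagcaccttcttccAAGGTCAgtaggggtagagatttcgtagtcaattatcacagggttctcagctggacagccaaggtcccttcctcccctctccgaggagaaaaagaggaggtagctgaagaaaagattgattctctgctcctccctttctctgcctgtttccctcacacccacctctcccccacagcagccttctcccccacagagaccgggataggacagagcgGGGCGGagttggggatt

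Motifs were searched on both strands. They were the NR5A site AAGGTCA, the cAMP response element TGACGTCA and its shorter core TGACG, which the longer form holds, the AP-1 site TGANTCA, the GATA factor site AGATAA, the box named CCAAT, the core promoter box TATAAA and the GC box GGGCGG. The Inhba window held TATAAA 91 bases before the start, a motif in 12.4% of all 32851 promoter windows of the same length. The Inhbb window held the GC box on the other strand, as CCGCCC, 122 bases before the start, and 32.7% of all windows hold that box. In the Amhr2 window AAGGTCA stood 231 bases and GGGCGG 17 bases before the start, and AAGGTCA is in 4.08% of windows. The other letters searched were not in these windows. Over all windows the longer cAMP response element was in 1.55%, its core in 17.8%, the AP-1 site in 6.75%, the GATA site in 9.99% and the CCAAT box in 33.8%. The windows differed in base composition, with 43.2% G and C for Inhba, 55.2% for Amhr2 and 68% for Inhbb beside a median of 52.4% over all windows.

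In cumulus cells of hyperovulated 2mo mice the α subunit had the highest level per length of the 6 genes. Inha was at 2053 ± 444 RPKM (SD, n = 5 mice), and Inhbb followed at 816 ± 222 RPKM. Fst (292 ± 29.3 RPKM) and Inhba (273 ± 83.2 RPKM) were next. The lowest levels were those of Amh (79.2 ± 65.8 RPKM) and its receptor Amhr2 (63.6 ± 8.33 RPKM). Inha stood above the summed β subunits in every group, with a ratio of RPKM values between 1.51 (Old) and 2.74 (4mo) on average in the hyperovulated groups.

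The 6 genes differed in how alike the groups were. The group means of Amhr2 ran from 120 CPM (Middle) to 146 CPM (2moNoH), those of Inha from 2980 CPM (4mo) to 3844 CPM (14mo), and those of Fst from 786 CPM (CR) to 1091 CPM (Young). Amh ran from 132 ± 110 CPM in 2mo mice to 247 ± 104 CPM in 2moNoH mice (SD, n = 5 and 8), with an SD of 9.40 CPM over the 3 CR mice and of 176 CPM over the 4 Middle mice. Inhba ran from 1474 CPM (4mo) to 2415 CPM (Old) in hyperovulated groups and was at 417 CPM in 2moNoH mice. Inhbb ran from 2985 CPM (4mo) to 4424 CPM (Old) and was at 1125 CPM in 2moNoH mice. When the groups of a set were ordered by their means, 0 of 18 pairs of neighbours in the first set and 0 of 24 in the second had ranges of mice that did not overlap. Over all genes with a mean of at least 5 CPM, 12.8% and 0.212% of such pairs did not overlap.

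**Figure D1:**
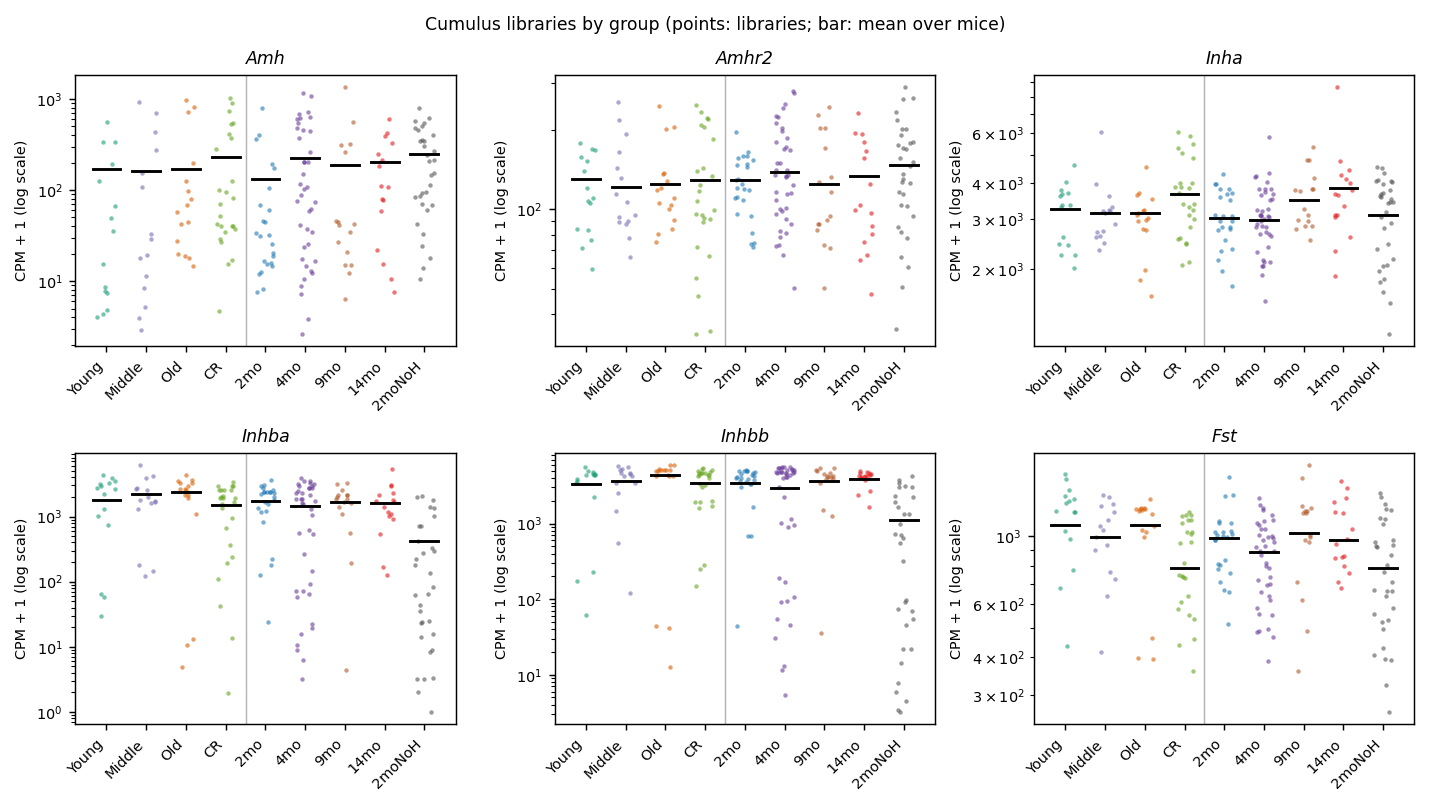
Levels of the 6 genes in cumulus cells, 1 panel per gene, as CPM + 1 on a log axis for each of the 9 groups. Points are libraries (the cumulus cells of 1 follicle), bars are means over mice, and the vertical line separates the first set from the second. Amh and Inhba spread over more than an order of magnitude among follicles in every group and Inhbb in every group but 14mo, while Inha, Amhr2 and Fst do not, and the Inhba points of 2moNoH sit low, with a median library of 72.5 CPM beside 2098 CPM in 2mo.

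Much of the spread of Amh, Inhba and Inhbb lay between follicles of the same mouse. The median mouse of the second set had a ratio of its highest to its lowest follicle of 28.4 for Inhba, 23.5 for Amh and 17.4 for Inhbb. The same ratio was 2.22 for Amhr2, 2.00 for Fst and 1.56 for Inha. In the first set these ratios were 33.4 for Inhba, 34.6 for Amh and 18.4 for Inhbb, and 2.86, 2.56 and 1.81 for Amhr2, Fst and Inha. Follicles within mice held 91.5% (first set) and 62.6% (second set) of the variance of log2 Inhba levels. Differences between groups held 1.70% and 25.9% of it, and the second set includes the mice without hyperovulation. For Amh the share within mice was 75.8% and 73.5%, for Inhbb 91.5% and 61.1%, and for Inha 62.2% and 48.7%. Amhr2 had 84.3% and 64.9% and Fst 77.4% and 57.5%. A large share within mice was thus not particular to Amh, Inhba and Inhbb, which had the wider spread.

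Follicles with more Amh had less Inhba. Within each of the 9 cumulus groups the correlation of the log levels across libraries was negative, with a median Pearson r of -0.79 and a range from -0.88 to -0.57. Amh also ran opposite to Fst (median r = -0.84, from -0.91 to -0.65) and to Inhbb (median r = -0.68, from -0.84 to -0.27). Against Inha the median was -0.38, the weakest of these medians within groups. Amh and its receptor Amhr2 went together, with a median r of 0.89 (0.66 to 0.94). The pair of β subunits went together in every group, with a median r of 0.95 (0.81 to 0.98), and Inhba and Fst had a median r of 0.82. The libraries of a group share mice and the follicles of a mouse share its preparation, and the 15 to 40 libraries of a group are therefore no independent samples. Taken as deviations from the mean of each mouse, Amh against Inhba gave r = -0.86 over 70 libraries of the first set and -0.71 over 128 libraries of the second. The same deviations gave 0.94 in both sets for Inhba against Inhbb and 0.86 and 0.82 for Amh against Amhr2. For Amh against Inha they gave -0.79 and -0.66, no weaker than the -0.77 and -0.54 for Amh against Inhbb. Amh against Fst gave -0.84 and -0.81. These are descriptions across follicles and carry no test.

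**Figure D2:**
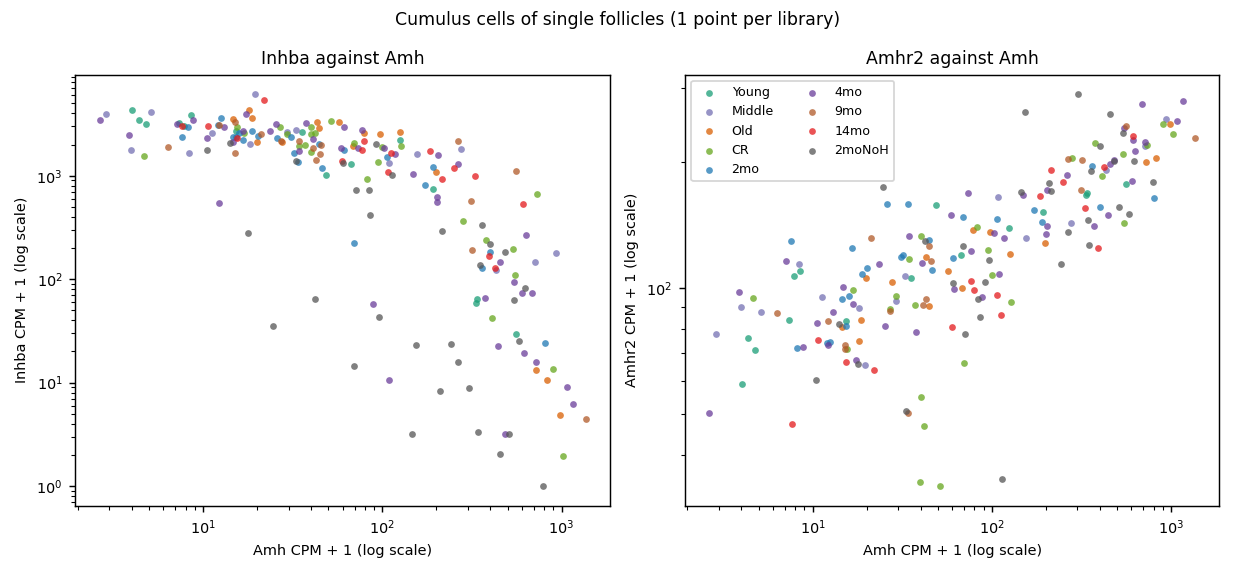
Inhba against Amh and Amhr2 against Amh in cumulus libraries, as CPM on log axes, with 1 point for each follicle. Inhba is lower where Amh is higher, and Amhr2 is higher where Amh is higher, over a narrower range, with median r within groups of -0.79 and 0.89.

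Hyperovulation was compared in cumulus cells of mice of the same age, 5 2mo and 8 2moNoH mice. The β subunits rose with hyperovulation, and the α subunit, follistatin, Amh and Amhr2 did not pass the test. Of the 6 genes 2 were called at a false discovery rate of 5%, both higher with hyperovulation, where 0.863% of 25828 genes were called and 0.457% were called higher.

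Inhba, the βA subunit, was at 2367, 1292, 2031, 1922 and 1094 CPM in the 2mo mice. In the 2moNoH mice it had a lowest value of 69.7 CPM, and the highest were 971 and 976 CPM. All 2mo mice were above all 2moNoH mice, with means of 1741 ± 531 CPM and 417 ± 354 CPM. Of all genes with a mean of at least 5 CPM, 1.91% had no overlap between these groups. The log2 difference was +2.05 (SE 0.46, adjusted p = 0.0411 in edgeR's quasi-likelihood test). The level of single follicles overlapped, from 22.9 to 3615 CPM in 2mo mice (median 2098) and from 0 to 2091 CPM in 2moNoH mice (median 72.5). The library at 0 could hold up to 3.58 CPM, the value of 3 counts at its depth.

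Inhbb, the βB subunit, was at 4446, 3467, 4367, 2772 and 2314 CPM in the 2mo mice and from 576 to 2685 CPM in the 2moNoH mice. The groups overlapped through 1 mouse, 2moNoH7, at 2685 CPM, and the next highest 2moNoH mouse was at 1542 CPM. Means were 3473 ± 946 CPM and 1125 ± 717 CPM, a log2 difference of +1.61 (SE 0.32, adjusted p = 0.0237).

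The 4 other genes had ranges of mice that overlapped. Amh was at 23.5 to 261 CPM in 2mo mice and 122 to 408 CPM in 2moNoH mice, a log2 difference of -0.92 (SE 0.46, adjusted p = 0.412). Inha was at 3028 ± 654 CPM and 3086 ± 732 CPM (log2 difference -0.04, SE 0.18), and Fst at 986 ± 98.8 CPM and 787 ± 239 CPM (+0.31, SE 0.19, adjusted p = 0.526). Amhr2 had a log2 difference of -0.21 (SE 0.20). The ratio of Inha to the summed β subunits, as RPKM, was thus 1.91 ± 0.135 in 2mo mice (1.80 to 2.14) and 8.15 ± 4.12 in 2moNoH mice (3.43 to 15.6), with no overlap of mice. Follistatin relative to the summed β subunits was 0.284 ± 0.0799 (0.208 to 0.387) and 0.907 ± 0.483 (0.302 to 1.67), with overlap. The Inhbb to Inhba ratio was 3.08 ± 0.677 and 5.72 ± 3.80, with overlap.

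**Figure D3:**
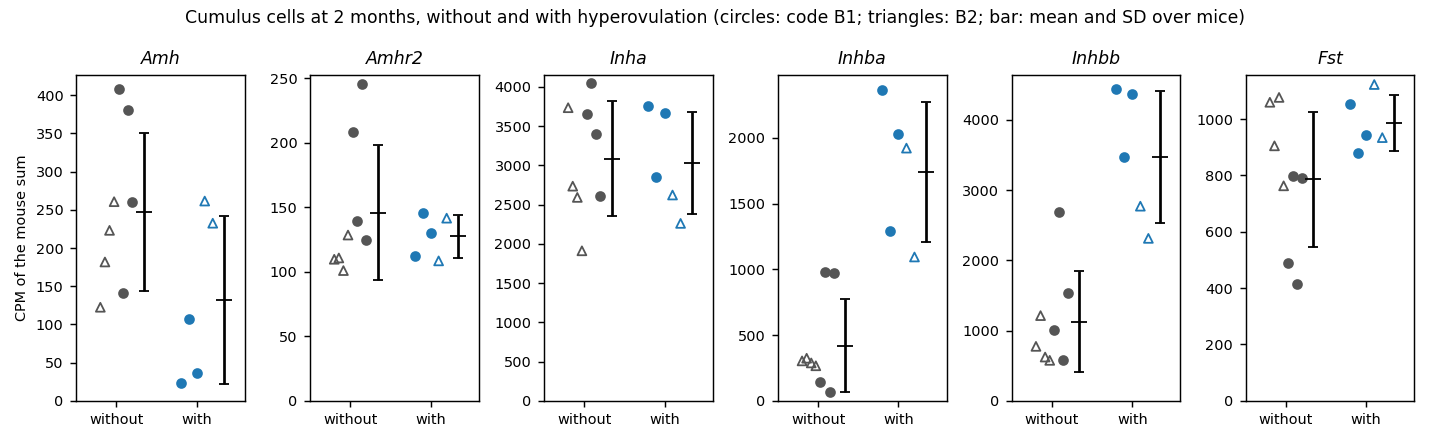
Levels of the 6 genes in cumulus cells of each mouse at 2 months without (2moNoH) and with (2mo) hyperovulation, in CPM. Circles are mice whose complex codes start with B1 and triangles those with B2, and bars are the mean ± SD over mice. Inhba shows no overlap between the groups and Inhbb overlaps through 1 mouse.

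The 2moNoH mice with high β subunit levels held follicles of both kinds. The 4 follicles of 2moNoH7 had Inhba at 2014, 1339, 329 and 33.9 CPM, and those of 2moNoH9 at 2091, 1769, 7.33 and 0 CPM. Among hyperovulated mice, some follicles had Inhba under the median 2moNoH library. They were 1 of 24 in 2mo, 11 of 40 in 4mo, 1 of 16 in 9mo and 0 of 16 in 14mo mice, and 3 of 15, 0 of 15, 3 of 16 and 3 of 25 in Young, Middle, Old and CR mice. The lowest hyperovulated mouse was a 4mo mouse, at 287 CPM of Inhba and 849 CPM of Inhbb.

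With libraries as units, Inhba and Inhbb were also the ones called (+2.12 and +1.70, adjusted p = 0.00338 and 0.0165), beside 12.1% of all genes. The calls on mice rested on few animals. Without the 2mo mouse 2mo1, 2mo2 or 2mo34, neither gene was called, and without 2mo35, 2mo36 or any of the mice 2moNoH10 to 2moNoH13 only Inhbb was. Over all 13 fits that left out a mouse, the log2 difference of Inhba was 1.89 to 2.35 (adjusted p 0.0144 to 0.108) and that of Inhbb 1.51 to 1.93 (0.00323 to 0.0773). The complex codes in the labels start with B1 or B2, and both groups held both kinds. Within B1 the differences were 1.79 for Inhba (adjusted p = 0.447) and 1.47 for Inhbb (0.244), and within B2 they were 2.34 (0.00802) and 1.66 (0.0563), where 0.00420% and 0.0445% of all genes were called. The summed level of 10 cumulus and granulosa markers, which include the called gene Cyp19a1, was 9228 to 10977 CPM in 2mo and 5866 to 9428 CPM in 2moNoH mice. Markers of luteinizing granulosa cells summed to 24.7 to 129 CPM and 29.5 to 69.3 CPM, and those of theca cells to 130 to 183 CPM and 144 to 284 CPM. The part of these in the result was not tested.

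Of 61 other genes of the pathway, 57 were tested for hyperovulation in cumulus cells, and 4 rose and 0 fell with mice as units, of which 3 are described. The fit on libraries had 11 higher and 10 lower with hyperovulation, beside 12.1% of all genes called in either direction. Grem1, an antagonist of bone morphogenetic proteins, was at 106 ± 73.8 CPM in 2moNoH and 383 ± 49.7 CPM in 2mo mice (log2 difference +1.84, SE 0.38, adjusted p = 0.0306). Nr5a1 encodes the nuclear receptor SF-1, which binds the NR5A site, and was at 87.6 ± 37.1 and 192 ± 55.3 CPM (+1.11, SE 0.24, adjusted p = 0.0369). Cyp19a1 encodes aromatase, which makes estradiol, and was at 46.5 ± 26.8 and 155 ± 84.0 CPM (+1.72, SE 0.34, adjusted p = 0.0248). None of the 10 receptors, 8 SMADs, 4 processing enzymes and 6 SMAD target genes tested was called in this edgeR fit.

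Across age and diet, none of the 6 genes was called in cumulus cells by edgeR. The share of genes called was 0% for Young against Middle, 0.431% for Young against Old, 0% for Middle against CR, 0% for 2mo against 4mo, 0.00810% for 2mo against 9mo and 0.159% for 2mo against 14mo. DESeq2 called 0 of the 6 in each of these comparisons. An unadjusted p under 0.05 was reached by 1 of the 6 in Young against Old (Inhbb), 1 in Middle against CR (Inhba), 1 in 2mo against 14mo (Inha) and 0 in the others. In these 3 comparisons 9.35%, 7.996% and 8.11% of all genes had such a p.

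Inhbb was at 3054 and 3556 CPM in the Young mice and at 3900 and 4947 CPM in the Old ones. These values did not overlap, as for 46.4% of all genes with a mean of at least 5 CPM, with a log2 difference of +0.41 (SE 0.14, adjusted p = 0.399). In 2mo and 14mo mice Inhbb was at 3473 ± 946 and 3883 ± 367 CPM, a difference of +0.19 (SE 0.16, adjusted p = 0.823). Inhba was at 2201 ± 327 CPM in Middle and 1507 ± 341 CPM in CR mice (-0.56, SE 0.17, adjusted p = 0.456), and the highest CR mouse (1837 CPM) was above the lowest Middle mouse (1786 CPM). Inha was at 3028 ± 654 CPM in 2mo and 3844 ± 1025 CPM in 14mo mice (+0.37, SE 0.17, adjusted p = 0.597).

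Amh did not pass the test at any age in cumulus cells. Its log2 difference was +0.03 (SE 0.48, adjusted p = 0.991) from Young to Old and +0.63 (SE 0.50, adjusted p = 0.813) from 2mo to 14mo. Leaving out a mouse label gave -0.78 to +0.98 for Young to Old. Within B1 the difference from 2mo to 14mo was +2.15 (adjusted p = 0.228), from a mean of 55.9 to 242 CPM, and within B2 it was -0.74 (adjusted p = 0.115), from 247 to 144 CPM. Among these 6 comparisons the SE of Amh was at least 0.48, and that of Inha was at most 0.17. Of the 61 pathway genes, 1 was called in cumulus cells across age or diet with mice as units. Tgfbr3, a co-receptor that binds inhibin, fell from 96.4 ± 17.7 CPM in 2mo to a mean of 49.98 CPM with an SD of 11.1 CPM in 14mo mice (log2 difference -0.92, SE 0.17, adjusted p = 0.0417). It was 1 of 56 tested there, and 0.0856% of all genes were called lower. In the fit on libraries, 5 of these genes were higher and 3 lower in CR than in Middle mice, and 2 were higher and 3 lower in 14mo than in 2mo mice. There 1 was higher in 9mo than in 2mo mice, none was called for 4mo, and Skil was lower in Middle and Old than in Young mice (-0.66 and -0.59). The share of all genes called in these fits on libraries is not given here. The counts from them are therefore not read as a result about the pathway.

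**Figure D4:**
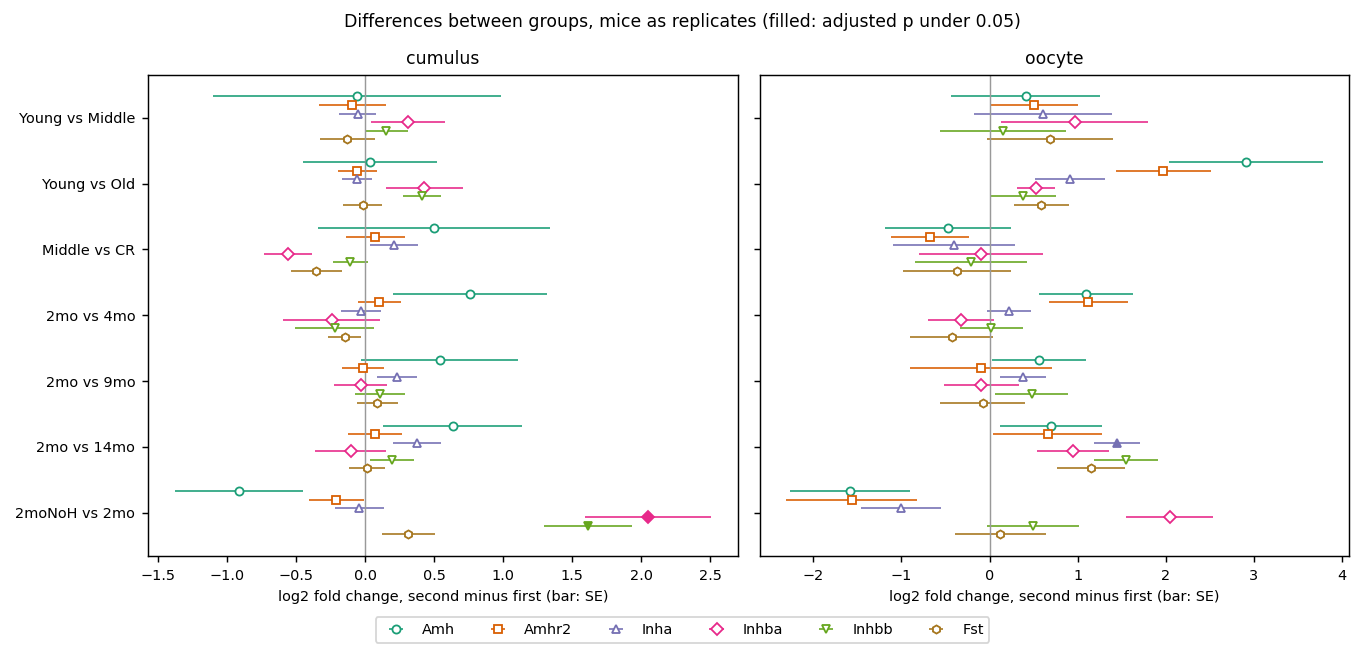
Log2 differences (second group minus first) with their SE for the 6 genes in 7 comparisons, in cumulus cells and in oocytes. Filled points have an adjusted p under 0.05 in edgeR, and these are Inhba and Inhbb for hyperovulation in cumulus cells and Inha for 2mo against 14mo in oocytes.

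All 6 genes were lower in oocytes than in cumulus cells in both sets. The log2 difference was -3.84 (Amh) to -4.81 (Fst) in the first set and -6.95 (Amh) to -8.88 (Fst) in the second, with an adjusted p of at most 1.03e-06 in edgeR. The share of genes called was 81.0% and 87.3%, and 39.3% and 47.2% were called lower in oocytes. Relative to the cumulus cells of the same mouse, the median oocyte level was 2.99% for Inha, 2.82% for Inhbb, 2.55% for Amh, 2.43% for Amhr2, 2.36% for Inhba and 1.73% for Fst in the first set. In the second set it was 0.468% for Amh, 0.443% for Amhr2, 0.390% for Inha, 0.214% for Inhba, 0.194% for Inhbb and 0.126% for Fst.

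The granulosa markers Gja1 and Npr2, which encode a gap junction protein and the receptor of C-type natriuretic peptide, stood at like shares, 2.98% and 2.82% in the first set and 0.184% and 0.136% in the second. Other genes of the marker list were higher in oocytes, such as Kitl (20.1% and 11.9%) and Cdh2 (14.5% and 17.5%). The 6 genes moved with the summed cumulus markers across oocyte libraries. In the first set (n = 73 libraries) Pearson's r of the log levels was 0.93 for Fst, 0.92 for Inha, 0.81 for Amhr2, 0.73 for Inhbb, 0.69 for Inhba and 0.57 for Amh. In the second set (n = 127) it was 0.60 for Inha, 0.53 for Inhbb, 0.47 for Fst, 0.44 for Inhba, 0.39 for Amhr2 and 0.24 for Amh. The points share mice, and both axes come from the same library.

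**Figure D5:**
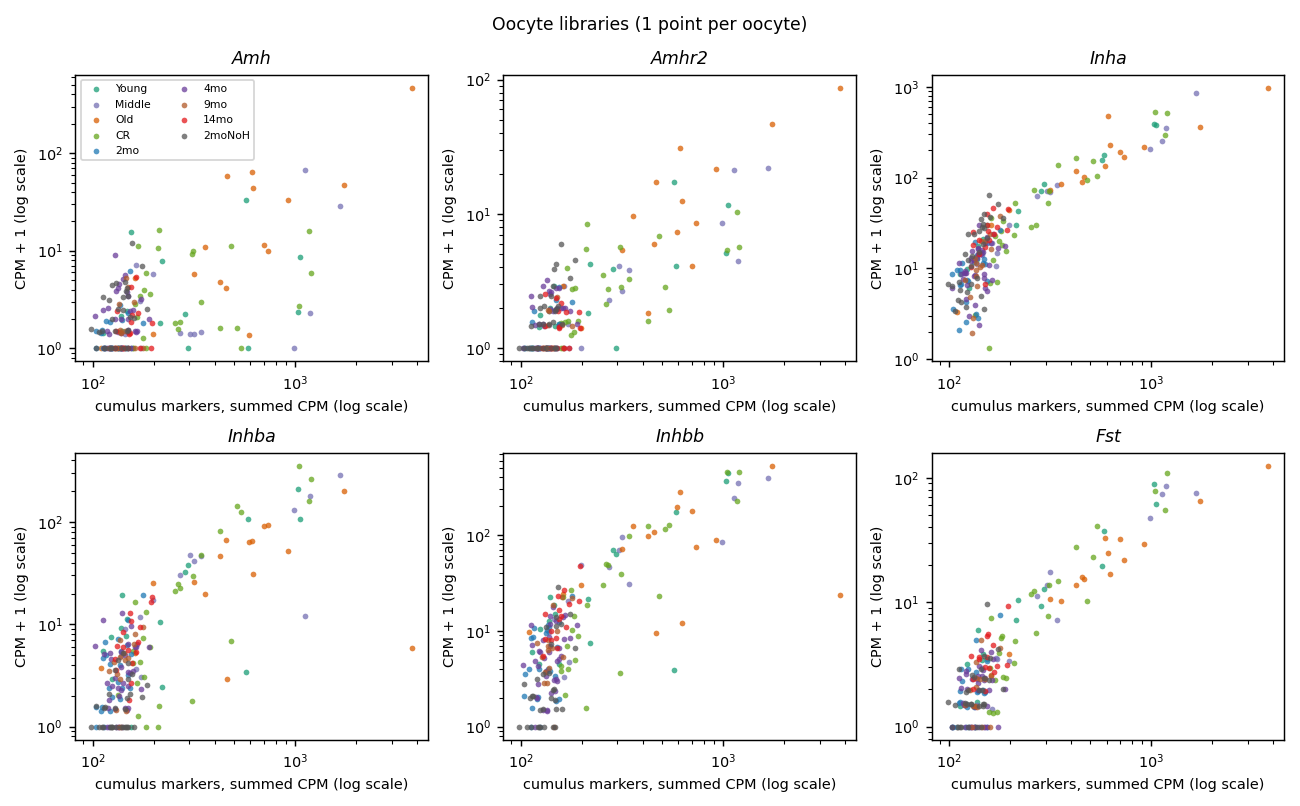
Levels of the 6 genes in oocyte libraries against the summed level of 10 cumulus and granulosa markers in the same library, in CPM + 1 on log axes. The first set reaches higher marker levels than the second, and the 6 genes rise with the markers, most closely Inha and Fst in the first set (r = 0.92 and 0.93).

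Over all complexes of a set, the balance of Amh and Inhba in an oocyte library went with that in its cumulus library. The log2 ratio of Amh to Inhba in the oocyte correlated with the ratio in the cumulus library of the same complex with r = 0.83 (rho = 0.71) over 70 complexes of the first set and r = 0.77 (rho = 0.76) over 127 of the second. Inha, which varied little among follicles, gave r = 0.08 and 0.18 by itself. These r pool all groups of a set, and the complexes share mice. The part of differences between groups or between mice in them was not tested. Oocyte counts were low in the second set, where Amh had 0 counts in 49 of 127 oocyte libraries and 3 or fewer in 99, and Inhba had 0 counts in 26. A count of 0 allows up to 3 counts in a library. Whether any of the 6 is transcribed in the oocyte was not tested.

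In oocytes 1 of the 6 genes was called between 2mo and 14mo mice, where 0.177% of 24326 genes were called and 0.0781% were called higher. Inha was at 6.30, 3.75, 8.54, 10.7 and 15.4 CPM in the 2mo mice and at 34.4, 32.6, 22.8, 17.2 and 17.6 CPM in the 14mo mice. The groups did not overlap, as for 2.59% of all genes with a mean of at least 5 CPM, and the log2 difference was +1.44 (SE 0.26, adjusted p = 0.0266). Inhbb was at 4.88 ± 3.58 and 15.3 ± 6.03 CPM (+1.55, SE 0.36, adjusted p = 0.101), and Fst at 1.29 ± 1.20 and 2.84 ± 0.501 CPM (+1.15, SE 0.39, adjusted p = 0.305). In the same oocytes the summed cumulus markers were 117 to 154 CPM in 2mo and 141 to 166 CPM in 14mo mice, and their part in the result was not tested. By complex code, the log2 difference of Inha was +2.21 within B1 (adjusted p = 0.000368) and +0.40 within B2 (adjusted p = 0.667), the latter with 2 mice a group, where 0.546% and 0% of all genes were called, and the difference between the codes was not tested. The call of Inha was lost without the mouse 14mo37, 14mo38, 2mo1 or 2mo34 (log2 differences 1.27 to 1.71 and adjusted p 0.00710 to 0.0992 over the 10 fits that left out a mouse), and with all groups in 1 fit (adjusted p = 0.155). With libraries as units, where 0.932% of genes were called, Inha and Inhbb were called (+1.43, adjusted p = 0.000477, and +1.48, adjusted p = 0.0111).

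The first set showed no call between Young and Old oocytes, although 4 of the 6 genes had an unadjusted p under 0.05, as did 9.08% of all genes, with 0 of 24849 genes called by edgeR (0%) and 0 of the 6 by DESeq2. Amh was at 3.79 and 5.23 CPM in the Young mice and at 3.52 and 61.6 CPM in Old3 and Old1_2 (log2 difference +2.91, SE 0.87, adjusted p = 0.506). The Old labels thus stood far apart, and without Old1_2 the difference was -0.33. With libraries as units, where 6.65% of genes were called, Amh (+3.45, adjusted p = 0.0231) and Amhr2 (+2.42, adjusted p = 0.0275) were called. A single oocyte of Old1_2 had 1065 counts of Amh (469 CPM), and its cumulus markers, at 3777 CPM, were the highest of all oocyte libraries. Summed markers were 816 CPM in the oocytes of Old1_2, 404 CPM in those of Old3 and 281 to 377 CPM in those of the Young mice. Amhr2 was at 2.54 and 3.45 CPM in the Young and 4.37 and 18.2 CPM in the Old mice (+1.97, SE 0.54, adjusted p = 0.506).

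No gene was called in oocytes for hyperovulation, where edgeR called 0 of 25088 genes (0%), with 4 of the 6 and 4.24% of all genes at an unadjusted p under 0.05 and 0 of the 6 called by DESeq2. Inhba was at 0.604 to 6.94 CPM in 2mo and 0.125 to 1.99 CPM in 2moNoH mice (log2 difference +2.05, SE 0.50, adjusted p = 0.9997). The 3 others of these 4 went the other way, with log2 differences of -1.58 for Amh (SE 0.68), -1.56 for Amhr2 (SE 0.74) and -1.003 for Inha (SE 0.46). With libraries as units, where 0.0283% of genes were called, Inhba was called (+1.99, adjusted p = 0.0381). None of the 6 was called in oocytes for Young against Middle (0% of genes called), Middle against CR (7.61%), 2mo against 4mo (0%) or 2mo against 9mo (0.0784%). Of these, only 2mo against 4mo had a gene with an unadjusted p under 0.05 (1, Amhr2, beside 4.87% of all genes), and DESeq2 called 0 in each.

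Whether the age differences differed between oocytes and cumulus cells was tested as an interaction. None of the 6 genes was called for Young against Old, Middle against CR, 2mo against 14mo or 2moNoH against 2mo, where 0%, 0.0918%, 0.0550% and 0.146% of genes were called, and 2, 0, 3 and 0 of the 6 had an unadjusted p under 0.05, beside 7.92%, 10.2%, 5.66% and 7.58% of all genes. With the mouse as a block, since oocytes and cumulus cells came from the same mice, the interaction was called for Amh (+1.89, adjusted p = 0.000262) and Amhr2 (+1.78, adjusted p = 0.00154) in Young against Old and for Inha (+1.07, adjusted p = 0.0254) in 2mo against 14mo, where 0.817% and 0.191% of all genes were called. Each was a larger log2 difference in oocytes than in cumulus cells. With libraries as units 1 of the 6 was called in Young against Old (Amhr2, +2.29, adjusted p = 0.0202), 1 in 2mo against 14mo (Inha, +1.17, adjusted p = 0.0167) and 1 in 2moNoH against 2mo (Inha, -1.0004, adjusted p = 0.0389), beside 4.48%, 0.679% and 3.70% of all genes.

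In oocytes, with mice as units, pathway genes were called in the diet comparison and in 1 age comparison. The fit on libraries had 6 higher and 5 lower in Old than in Young oocytes, beside 6.65% of all genes called. It had 1 higher and 1 lower in 14mo than in 2mo oocytes, beside 0.932%. In CR against Middle oocytes it had 9 higher and 7 lower. The share of all genes for that fit is not given here, so these counts are not read as a result about the pathway. The values below are from the fit on mice. From Middle to CR, where 4.07% of all genes were called higher and 3.54% lower, 4 of 55 genes rose, among them Acvr1 (log2 difference +0.94), Tgfbr1 (+0.88) and Bmpr2 (+0.48), which encode receptors of the family. There 2 fell, Sox8 (-1.05), a transcription factor that binds the Amh promoter, and Bmp6 (-0.56), a ligand. Sox8 was also the only one of 52 called from 2mo to 14mo oocytes (-0.52, adjusted p = 0.00294), where 0.0987% of all genes were called lower.

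Across the 30 mice of the second set, the genes whose cumulus levels were most like each of the 6 were found among 12029 genes with a mean of at least 5 CPM. Beside Amh stood Wt1 (r = 0.90, and 0.90 over the 11 mouse labels of the first set), Pdpn (0.90 and 0.92) and Lrp4 (0.85 and 0.64). Wt1 encodes a transcription factor. Beside Inhba stood Grem1 (0.95 and 0.76), Efna5 (0.94 and 0.48) and Rps6ka2 (0.93 and 0.89), and beside Inhbb Efna5 (0.95 and 0.58), Arhgap35 (0.94 and 0.83) and Cox4i2 (0.93 and 0.66). Fst had Pparg (0.90 and 0.77), Tex15 (0.88 and 0.76) and Sncaip (0.88 and 0.37). For Inha they were Nfix (0.86 and 0.35), Scrn2 (0.85 and 0.04) and Pidd1 (0.81 and 0.53), and for Amhr2 Igsf8 (0.87 and 0.66), Snd1 (0.83 and 0.45) and Cercam (0.80 and -0.05). The mice include the 2moNoH group, in which Inhba, Inhbb and Grem1 were lower than in 2mo mice.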

How the data were processed

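The authors trimmed the reads, aligned them to GRCm38 with HISAT2 2.0.5 and counted them per GENCODE gene with featureCounts 1.5.1, reads with several alignments included (versions per the submitters' processing notes). The deposited tables hold expected counts per gene and library, which are not always whole (0.971% to 1.50% of nonzero values of Amh, 14.9% to 25.2% of Inhba), and the authors' RPKM values, which were used only as an alternative length scaling. Counts were summed over the libraries of a mouse and cell type, rounded to whole numbers and tested with edgeR 4.0.16 in R 4.3.3 (TMM, quasi-likelihood F test, a filter that kept genes detected in 5 or more of the libraries compared, Benjamini-Hochberg adjustment over all genes tested, false discovery rate 5%). The design had assumed whole counts. The authors' methods take libraries as units. CPM used TMM library sizes, and RPKM used the length that the deposited values imply. Likeness used log2(CPM + 1), with a pseudocount of 1. Tests were checked on simulated data.

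The 6 genes in every comparison, the pathway genes called with a mean of at least 1 CPM (up to 3 each way) and the 3 most alike genes per member are named. The genes, lists and tests were chosen with earlier results of these data known. Alternatives were DESeq2 1.42.0, another normalization, 2 other filters, all groups in 1 fit, the complex code as a covariate, libraries as units, the removed complex kept, each mouse left out and, for comparisons of cell types, the mouse as a replicate block. The pairing of oocytes and cumulus cells comes from the mouse named in the labels. Fits within B1 and within B2 were added after seeing the data. Total counts were 510029 to 4536690 per library, and floors of 3 counts cover counting error only. A called gene of the pathway list is not reported here.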

Additional observations from a re-analysis of the deposited data

Results flagged for a closer look

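A mouse stood apart from the others of its group in 3 of 72 groups of 4 to 8 mice, by the gap to its nearest neighbour over the range of the group, and chance alone flags about 1 in 20 groups. Amh in cumulus cells of the mouse 14mo38 was at 420 CPM, with the other 14mo mice at 114 to 191 CPM. Inhbb in cumulus cells of the mouse 2moNoH7 was at 2685 CPM, with the other mice of its group at 576 to 1542 CPM. Inha in cumulus cells of the mouse Middle4 was at 3519 CPM, with the other Middle mice at 2997 to 3028 CPM.

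With the mouse as a block, oocytes and cumulus cells differed in their age difference for 3 genes. The interaction was 1.89 for Amh and 1.78 for Amhr2 in Young against Old, on the log2 scale, and 1.07 for Inha in 2mo against 14mo. The Young and Old groups held 2 mouse labels each, and leaving out Old1_2 turned the oocyte difference of Amh to -0.33.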

How the results depend on the processing

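Over 308 fits, members called in the main comparison kept their direction in all of 123 alternative values and were no longer called in 21. The 123 include oocytes against cumulus cells, where each gene stayed called in 5 of 5 alternatives in both sets. The losses fell on the calls between groups. For hyperovulation in cumulus cells, Inhba was called in 12 and Inhbb in 17 of 22 alternatives. For 2mo against 14mo oocytes, Inha was called in 13 of 19. Of 1597 alternative values of members not called, 165 had the other direction and were not called, 36 were called in the same direction and 0 in the other. The number of the 6 genes called moved as follows, with the percent of all genes called in that fit in parentheses, and the cause was not tested. In cumulus cells, Young against Old gave 2 with no filter (2.28%), and hyperovulation (2 called) gave 0 within B1 (0.00420%) and 1 within B2 (0.0445%). In oocytes, Young against Old (0 called) gave 2 with libraries as units (6.65%) and 3 with no filter (1.74%). The 2mo against 14mo oocytes (1 called) gave 2 with libraries as units (0.932%), 2 with no filter (0.339%), 0 with all groups in 1 fit (0.221%), 3 within B1 (0.546%) and 0 within B2 (0%). Hyperovulation in oocytes (0 called) gave 1 with libraries as units (0.0283%), 1 within B1 (0.0171%) and 2 within B2 (0.0312%). The interaction of cell type with Young against Old (0 called) gave 2 with the mouse as a replicate block (0.817%) and 1 with libraries as units (4.48%), that with 2mo against 14mo gave 1 (0.191%) and 1 (0.679%), and that with hyperovulation gave 1 with libraries as units (3.70%). The block changed no other call. Leaving out 1 mouse gave 0 to 1 (0.198% to 0.748%; cumulus, Young against Old), 0 to 2 (0.235% to 1.503%; cumulus, hyperovulation), 0 to 5 (0% to 18.7%; oocytes, Young against Old), 0 to 3 (0.0844% to 0.254%; oocytes, 2mo against 14mo), 0 to 4 (0% to 5.95%; interaction, Young against Old) and 0 to 1 (0.0197% to 0.0622%; interaction, 2mo against 14mo).

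Of the differences whose values are given above, some reversed, and the reversed values were not called. Within B2 these were Amh (0.31) and Amhr2 (0.14) for hyperovulation in cumulus cells, Amh (-0.74) for 2mo against 14mo in cumulus cells, Fst (-0.018) for 2mo against 14mo in oocytes, and Amh (1.49), Amhr2 (1.4998) and Inha (1.12) for hyperovulation in oocytes. Amh in Young against Old cumulus cells was at -0.023 in DESeq2 and ran from -0.78 to 0.98 when a mouse was left out. Inha for hyperovulation in cumulus cells ran from -0.13 to 0.046 when a mouse was left out. Amh in Young against Old oocytes ran from -0.33 without Old1_2 to 3.82 without Old3. With the authors' RPKM in place of RPKM from the counts, 4 of 108 group means moved by the SD over mice or more, those of Inhba and Fst in Young oocytes (6.02 and 5.35 RPKM) and of Inhba and Inhbb in Old oocytes (7.83 and 28.7 RPKM). Young and Old held 2 mouse labels each. Depth limits the oocyte values of the second set, where the median library had 1 count of Amh and of Amhr2.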

Other observations

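The removed complex of Middle3 had an oocyte library with oocyte markers at 1.03% of the median oocyte library and cumulus markers at 143% of the median cumulus library. Its members stood at cumulus levels in both libraries. Inhbb was at 6233 CPM in the library labelled oocyte and 4622 CPM in the cumulus library, Inha at 5033 and 3219 CPM, Inhba at 2851 and 2371 CPM, and Fst at 1062 and 1123 CPM. Amh was at 45.5 and 22.7 CPM and Amhr2 at 105 and 77.5 CPM.

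Oocytes of the 2moNoH mice held more Inha where their complex codes start with B1 (18.8 to 41.2 CPM) than with B2 (4.19 to 9.16 CPM), with no overlap between the codes. Inha was not alone in this. Amh, Amhr2, Inhba, Inhbb and Fst were also higher in B1 without overlap, with Inhbb at 4.35 to 9.97 and 0.374 to 1.11 CPM. The share of all genes without overlap between the codes is not given here. The summed cumulus markers of these oocytes moved with the codes too, at 137 to 157 CPM in B1 and 117 to 127 CPM in B2, and in 2mo oocytes they were at 117 to 127 CPM in B1 and 143 to 154 CPM in B2. Their part in these differences was not tested. Within B1, Inha was lower in 2mo than in 2moNoH oocytes (log2 difference -2.17, adjusted p = 0.00895 in edgeR), and within B2 Inhba and Inhbb were higher in 2mo oocytes (4.27, adjusted p = 0.00103, and 3.30, adjusted p = 0.00567). Of all genes, 0.0171% were called within B1 and 0.0312% within B2. The differences within B2 rest on 2 2mo mice and on 2moNoH values near the floor, with Inhba at 0.125 to 0.605 CPM. Over all 32 oocyte libraries of 2moNoH mice, 16 had 0 counts of Inhba and 9 had 0 counts of Inhbb.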
